A study of Homo sapiens with 1 sample.

Results

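The miRNAs encoded inside the human HOX gene clusters were examined in DLD-1, a human colorectal carcinoma cell line, to see how brightly each arm of each hairpin was measured in cells carrying only the control vector. The members were 10 mature miRNAs, the 5p and 3p arms of miR-10a, miR-10b, miR-196a, miR-196b and miR-615, chosen by name out of 2549 human miRNAs on the array. The RNA came from cells that had received the negative control plasmid, labelled pLVX-NC, and was read on 1 array with Cy3 dye. The study set this control against cells overexpressing the circular RNA circLONP2, and those arrays were not analysed here. With 1 array of 1 condition there is no biological replicate, no test between conditions was possible and no p-value is given. Errors below come from repeated spots on that array.

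HOX genes encode transcription factors that set position along the body axis, and they sit in 4 clusters, HOXA to HOXD. Each cluster also carries miRNA genes, whose hairpins are cut by Drosha and Dicer into a 5p and a 3p arm, and one arm of a pair is usually kept in Argonaute as the guide while its partner is degraded. The 5p arms of the miR-10 and miR-196 families and the 3p arm of miR-615 are generally regarded as the guides. The miR-196 family is known for repressing HOX mRNAs such as HOXB8, and miR-10b is known for its study in tumour invasion and metastasis.

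All 6 genes of these miRNAs lay between the outermost HOX genes of a cluster in the RefSeq annotation of GRCh38.p14. MIR196B was the miRNA gene of HOXA, on the minus strand at chr7:27169480-27169563, between HOXA9 and HOXA10 and inside the spans of the read-through gene HOXA10-HOXA9 and the antisense gene HOXA10-AS. HOXB held MIR10A at chr17:48579838-48579947, 1487 bases from the HOXB4 gene and inside the span of HOXB3. It also held MIR196A1 at chr17:48632490-48632559, between HOXB9 and HOXB13 and inside HOXB-AS4. HOXC held MIR196A2 at chr12:53991738-53991847, between HOXC10 and HOXC9, and MIR615 at chr12:54033950-54034045, inside the spans of HOXC4 and HOXC5. MIR10B lay in HOXD at chr2:176150303-176150412, 1137 bases from HOXD4. Exons and introns were not resolved, since the gene table gives whole spans. The map of the clusters shows that the miR-10 genes sat beside a paralog group 4 HOX gene in both of their clusters, whereas the miR-196 genes lay on the side of HOX9 facing the higher-numbered HOX genes.

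Mature sequences were found by name in RefSeq for 9 of the 10 members, miR-10b-5p not being among them. They are shown because the seed groups the members and because near-identical arms bear on what a probe can tell apart. Capitals mark the seed, bases 2 to 8, which leads pairing with target mRNAs.
hsa-miR-196a-5p: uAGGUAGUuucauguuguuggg
hsa-miR-196b-5p: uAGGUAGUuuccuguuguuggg
hsa-miR-10a-5p: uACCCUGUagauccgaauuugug
hsa-miR-10a-3p: cAAAUUCGuaucuaggggaaua
hsa-miR-10b-3p: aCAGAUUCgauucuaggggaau
hsa-miR-196a-3p: cGGCAACAagaaacugccugag
hsa-miR-196b-3p: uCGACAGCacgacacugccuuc
hsa-miR-615-5p: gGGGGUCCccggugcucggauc
hsa-miR-615-3p: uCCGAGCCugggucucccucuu
The guide arms of miR-196a and miR-196b shared the seed AGGUAGU, and no other mature miRNA in the table had it at bases 2 to 8. They were identical at 21 of 22 bases and differed by A12C, counted from the 5′ end of miR-196a-5p. The same 7 bases stood 1 position further along, at bases 3 to 9, in 9 of 2370 mature miRNAs of the table, of which 8 were let-7 family members or miR-98 and the other was miR-4500. The 3p arms of the 10a and 10b hairpins matched at 18 of 21 bases once miR-10b-3p was shifted by 1 base, so their seeds were different windows of a similar arm. The passenger arms of miR-196a and miR-196b had no seed in common. miR-615-5p was the most GC-rich of the 9, with 17 of 22 bases G or C, against 8 of 22 in miR-10a-3p.

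The 3 miR-196 hairpins explain which locus a signal can be given to. Capitals mark the mature arms, and each sequence runs 5′ to 3′ on its own strand.
MIR196A1: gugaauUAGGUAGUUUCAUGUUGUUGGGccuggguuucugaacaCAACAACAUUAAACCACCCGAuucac
MIR196A2: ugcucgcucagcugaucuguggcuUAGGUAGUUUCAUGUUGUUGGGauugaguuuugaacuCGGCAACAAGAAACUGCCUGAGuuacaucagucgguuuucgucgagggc
MIR196B: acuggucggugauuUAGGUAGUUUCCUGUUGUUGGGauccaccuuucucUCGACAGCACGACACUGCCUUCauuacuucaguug
MIR196A1 in HOXB and MIR196A2 in HOXC give the same 5p arm, so the miR-196a-5p signal cannot be divided between the clusters. Their 3p arms differ, and the miR-196a-3p measured here is the MIR196A2 arm in HOXC. The 3p arm of MIR196A1 was not measured under its own name.

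The members differed in how many of their spots stood above background. Each miRNA had 20 spots, divided over 2 or 4 different probes for the members, and brightness is the scanner software's background-subtracted signal in arbitrary units. Of the 200 member spots, 150 were well above background by the software's flag, which compares with 45.3% of all human miRNA spots and 79.5% of those of detected miRNAs. Of those 150, 3 were marked as outliers and left out of the levels, and no member spot was saturated. Because probes of different sequence bind and label with different efficiency, brightness ranks signals and is not a measure of the number of molecules. Whether a probe of 1 miRNA also binds its close relative was not tested.

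Marker miRNAs of colorectal epithelium and of other tissues were read against the 56.8% of all human miRNAs that the software called detected, and with lists this short the counts do not settle the identity of the cells. Of 7 epithelial or colorectal markers, 5 were detected, miR-141-3p being brightest at 3024, while miR-192-5p and miR-194-5p were not detected. The other detected ones were far dimmer, miR-21-5p at 228.8, miR-200c-3p at 85.3, miR-200b-3p at 81.2 and miR-429 at 30.9. Of 14 markers of blood, muscle, brain, liver, endothelial or stromal cells, 8 were detected, with mean brightness up to 77.2 for the neuronal miR-124-3p. It, miR-126-3p at 58.9 and miR-145-5p at 37.0 were brighter than miR-429, and the rest of those detected were dimmer. Of the blood markers, miR-223-3p and miR-150-5p were detected, with means of 16.5 and 12.2, whereas miR-451a and miR-144-3p were not. Also not detected were the liver marker miR-122-5p, the brain marker miR-9-5p, the muscle marker miR-1-3p and the endothelial or stromal marker miR-143-3p. The brain marker miR-128-3p and the muscle markers miR-206 and miR-133a-3p were detected, with means of 26.4, 26.7 and 14.2. The part of these signals in the values of the HOX-cluster miRNAs was not tested.

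All 10 HOX-cluster miRNAs carried the software's detected flag, which 56.8% of the human miRNAs on the array carried. The members detected were 9 when a share of 0.5 or more of a probe's spots had to stand well above background (49.9% of human miRNAs), the exception being miR-10b-5p. They were 8 when every spot of a probe was needed (44.6%), miR-196a-5p also falling out. Under either rule 1 passing probe was enough for a miRNA to count. The 8 thus included miR-615-5p, with 5 of its 20 spots flagged as well above background. They also included miR-615-3p with 10 of 20 and miR-10a-5p with 16 of 20. All 10 passed when positive and significant spots sufficed (69.0%), and when the brightest probe had to lie above the 99th percentile of negative controls (55.3%, or 64.1% without 1 control probe that stood apart).

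Brightness covered a wide range. Set against the 75th percentile of detected probes, a brightness of 248.8, the log2 signals of the members ran from -5.42 to 1.13 with a median of -2.69, and all detected human miRNAs had a median of -2.06. miR-10b-3p alone lay above that percentile, and with the percentile taken over all human probes 4 members did. Mean log2 brightness was above the median of detected human miRNAs, 5.90, for 4 members, miR-10b-3p, miR-196b-5p, miR-10a-3p and miR-196a-3p, and 28.4% of all human miRNAs were above it. miR-196b-3p, at 5.89, lay just under that median. The 5 3p arms ran from -3.47 to 1.13 with a median of -1.32, and the 5 5p arms from -5.42 to -0.64 with a median of -3.57, so the ranges overlapped.

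**Figure D1:**
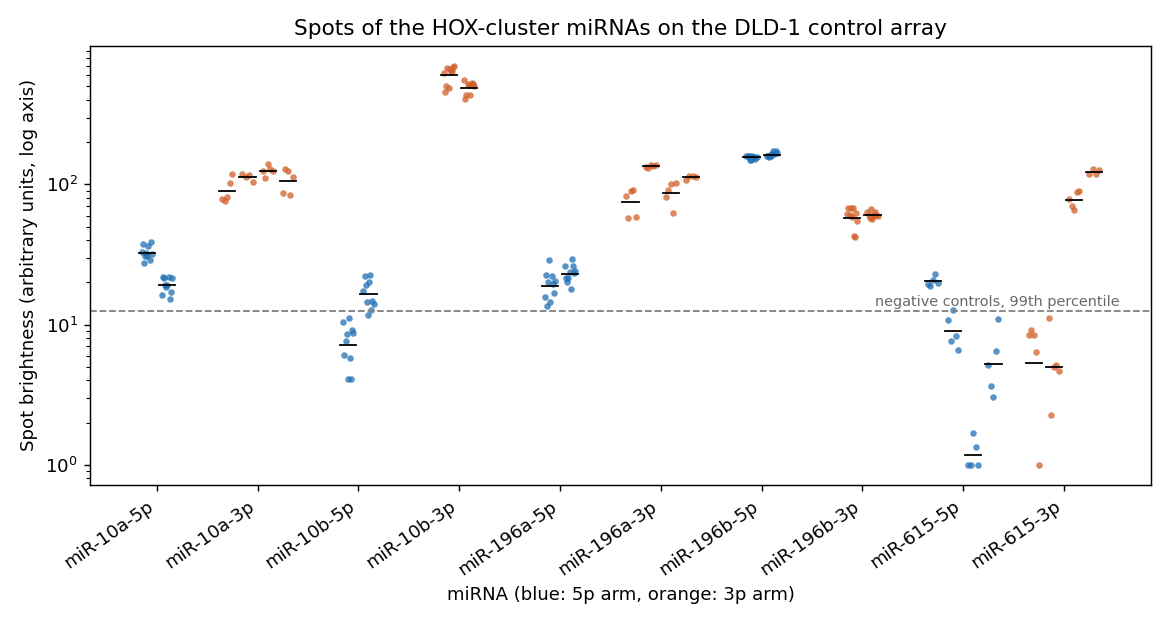
Brightness of every spot used, on a log axis in arbitrary units, for the 5p arms (blue) and 3p arms (orange) of the HOX-cluster miRNAs. Each column of points is 1 probe, the black bar is its mean on the log scale, values below 1 are drawn at 1, and the dashed line at 12.5 is the 99th percentile of negative controls. The miR-10b-3p spots lie highest, between 409.3 and 700.9, and the probes of both miR-615 arms are spread over both sides of the line.

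MIR10B in the HOXD cluster gave the widest gap between the arms of any of these hairpins. The 20 spots of hsa-miR-10b-3p ran from 409.3 to 700.9 with a median of 521.6, and their mean was 550.5 ± 92.6 (SD over 20 spots). Those of hsa-miR-10b-5p, the arm generally regarded as the guide, ran from 4.09 to 22.6 with a median of 11.5 and a mean of 12.2 ± 5.76 (SD over 20 spots). The spots of the arms did not overlap, and only 4 of the 20 spots of miR-10b-5p were well above background, all on 1 of its 2 probes. On the log2 scale the 5p minus 3p difference was -5.64. Its size is not well determined, since the 5p arm was largely not well above background. The difference was -6.03 from the software's total signal of each miRNA, -5.19 between the brightest probes of the arms and -3.06 after normexp. Normexp is another background correction, whose added offset of 50 narrows ratios. miR-10b-3p was number 159 of 2549 human miRNAs by brightness, and miR-10b-5p number 1326.

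MIR10A in HOXB leaned the same way with a smaller gap. Spots of hsa-miR-10a-3p ran from 76.3 to 139.9 with a median of 113.7, and the mean was 109.3 ± 19.3 (SD over 19 spots). Spots of miR-10a-5p ran from 15.2 to 38.6 with a median of 24.7, and the mean was 26.0 ± 7.62 (SD over 20 spots). Every spot of the 3p arm was above every spot of the 5p arm. The 5p minus 3p difference was -2.11 on the log2 scale (standard error 0.06), a 4.32-fold difference in brightness, and -0.96 after normexp. Of the 20 spots of miR-10a-5p, 16 were well above background, and its 2 probes had means of 32.8 and 19.2. The lower probe had 6 of 10 spots well above background.

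The paralogs from HOXB and HOXD ranked in opposite order on the 2 arms. miR-10a-5p was brighter than miR-10b-5p by 1.20 on the log2 scale, a difference whose size is again limited by the background under miR-10b-5p and which was 0.25 after normexp and 0.64 in the deposited values. miR-10a-3p was dimmer than miR-10b-3p, by -2.33 (standard error 0.06), which is 5.04-fold. In neither comparison did the probe means of the paralogs overlap, although single spots of the 5p arms did.

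The miR-196 family, which targets HOX mRNAs, showed both arm orders. miR-196b from HOXA was the 1 hairpin whose 5p arm was the brighter. Its hsa-miR-196b-5p spots had the smallest SD relative to their mean of any member, and ran from 149.6 to 173.2 with a median of 158.3 and a mean of 159.5 ± 6.20 (SD over 20 spots). Spots of miR-196b-3p ran from 42.0 to 68.4 with a median of 60.5, and the mean was 59.8 ± 6.99 (SD over 20 spots). Every spot of this hairpin was well above background and the arms did not overlap. The 5p minus 3p difference was 1.42 on the log2 scale (standard error 0.04), or 2.68-fold, and 0.88 after normexp.

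miR-196a leaned to the 3p arm. miR-196a-3p, the arm specific to MIR196A2 in HOXC, had spots from 57.9 to 137.9 with a median of 101.9 and a mean of 102.2 ± 26.4 (SD over 19 spots). miR-196a-5p, which MIR196A1 in HOXB can also supply, had spots from 13.5 to 29.1 with a median of 21.4 and a mean of 21.4 ± 4.35 (SD over 20 spots). The arms did not overlap, although 5 of the 20 spots of miR-196a-5p were not well above background. The 5p minus 3p difference was -2.24 on the log2 scale (standard error 0.08), or 4.74-fold, and -0.98 after normexp. The guide arms of miR-196a and miR-196b, alike at 21 of 22 bases as shown above, were 7.61-fold apart, the log2 difference of miR-196a-5p minus miR-196b-5p being -2.93 (standard error 0.06), and -1.43 after normexp. The 3p arms were closer, with miR-196a-3p brighter by 0.74 (standard error 0.07), by 0.43 after normexp and by 1.15 between the brightest probes.

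The values of miR-615 from HOXC rested on probes that disagreed. Of the 4 probes of miR-615-3p, the arm generally regarded as its guide, 2 had means of 78.5 and 123.0 with every spot well above background, and the other 2 had means of 6.65 and 5.63 with none. Its spots ran from 0.87 to 128.6 with a median of 11.1, and the mean of 49.8 ± 50.1 (SD over 19 spots) describes neither kind of probe. miR-615-5p had 1 probe with all 5 spots well above background, at a mean of 20.4, and 3 probes with means of 9.20, 5.85 and 0.79 and no spot well above background. Its 20 spots ran from -0.38 to 23.1 with a median of 7.10 and a mean of 9.07 ± 7.68 (SD over 20 spots). The brightest and dimmest probes differed by 4.63 on the log2 scale for miR-615-3p and by 4.12 for miR-615-5p, whereas the median difference over 1447 detected miRNAs with several probes was 0.36, and 97.7% and 96.8% of those had a smaller one. For the other 8 members the difference ran from 0.07 to 1.20. The dimmest probe of each miR-615 arm lay below the 99th percentile of negative controls, so the miR-615 differences are limited by background. Spots of miR-615-5p under 1 were also raised to 1. The 5p minus 3p difference of miR-615, -1.95, came with overlapping probes and ran from -3.30 to -0.57 over the alternatives.

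Over the 5 hairpins the 5p arm was brighter in 1, miR-196b, and the 3p arm in 4. Among the 255 human hairpins with both arms detected, the 5p arm was brighter in 65.9%, and among all 810 with both arms on the array in 59.0%. The 255 include many hairpins numbered from miR-6727 to miR-6892, most of them brighter on the 5p arm, so these shares depend on which hairpins are compared. The 5p minus 3p difference over the 255 had a median of 1.34 and quartiles of -0.71 and 3.21. The miR-196b value of 1.42 lay in the middle of that distribution, with 50.2% of hairpins below it. For miR-615, miR-10a and miR-196a, 15.3%, 13.7% and 12.9% of hairpins leaned further to the 3p arm, and for miR-10b 2.35% did, its 5p arm and that of miR-615 being largely not well above background. With 5 hairpins on 1 array this is a description and not a test.

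**Figure D2:**
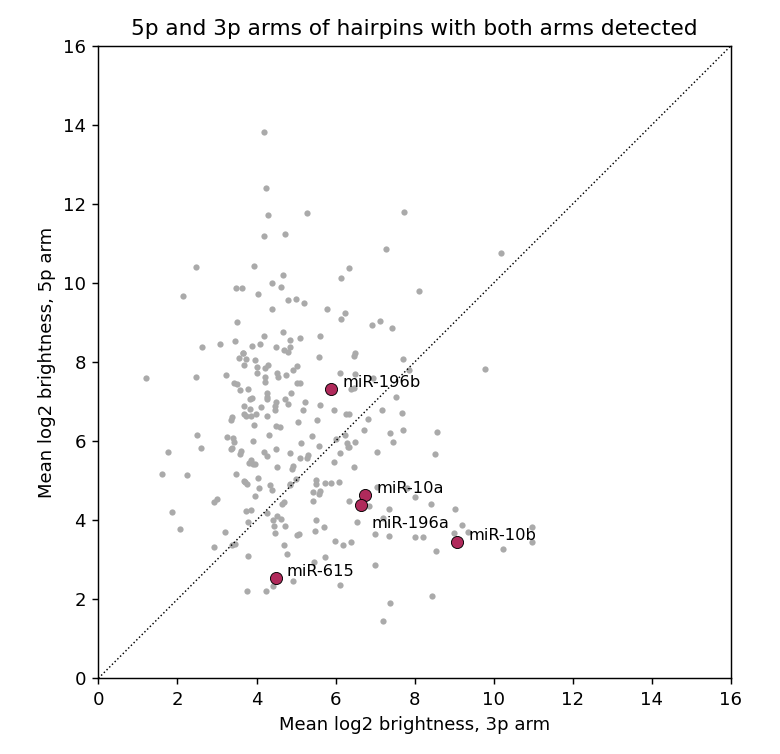
Mean log2 brightness of the 5p arm (vertical axis) against the 3p arm (horizontal axis) for the 255 human hairpins with both arms detected, with the 5 HOX-cluster hairpins in colour and the dotted line marking equal brightness. miR-196b lies above the line at a 5p minus 3p difference of 1.42, and the other hairpins lie below it, miR-10b farthest at -5.64 with a 5p arm largely not well above background.

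Ordered by brightness, the members ran miR-10b-3p, miR-196b-5p, miR-10a-3p, miR-196a-3p, miR-196b-3p, miR-10a-5p, miR-615-3p, miR-196a-5p, miR-10b-5p and miR-615-5p. Of the 8 neighbouring pairs down to miR-10b-5p, 5 differed by more than 2 standard errors from the spots. The pairs that did not were miR-10a-3p with miR-196a-3p (difference 0.12, standard error 0.07), miR-10a-5p with miR-615-3p (0.16, standard error 0.18) and miR-615-3p with miR-196a-5p (0.10, standard error 0.19). miR-10b-5p and miR-615-5p, with 4 and 5 of 20 spots well above background, have no settled order, and the order between them turned with the brightest probe of each. Yet their difference of 0.91 (standard error 0.14) also exceeded 2 standard errors. These errors leave out differences between probes, so passing 2 of them does not settle an order. The plot of ranks among all human miRNAs shows the members spread from number 159 to number 1511, the highest coming from HOXD.

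**Figure D3:**
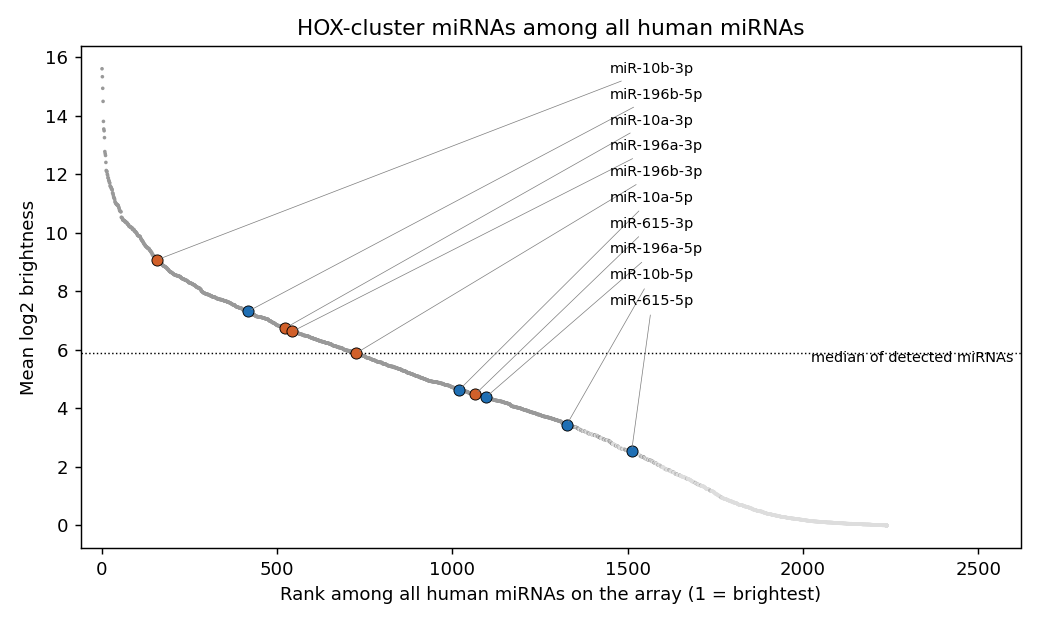
Mean log2 brightness (vertical axis) of all 2549 human miRNAs against their rank (horizontal axis, 1 for the brightest, miRNAs of equal brightness sharing a rank), detected miRNAs in dark grey and the others in light grey, with 5p arms in blue and 3p arms in orange. miR-10b-3p sits at rank 159, miR-196b-3p at rank 726 next to the median of detected miRNAs (dotted line), and miR-615-5p at rank 1511.

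The authors' normalized log2 values of the same array kept most of this order. miR-10b-3p had the value 7.64, miR-196b-5p 5.49, miR-10a-3p 4.92, miR-196a-3p 4.84 and miR-196b-3p 4.02. miR-615-3p, at 3.82, stood above miR-10a-5p at 2.96 and miR-196a-5p at 2.69, the reverse of its place by mean log2 brightness. miR-10b-5p and miR-615-5p shared the value 2.33, close to the floor of 2.32 that undetected miRNAs held, so these values do not order them.

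The HOX clusters held 2 more miRNA genes, each with a single mature form on the array, and neither is a member of the miR-10, miR-196 or miR-615 families. miR-7704 from HOXD, at chr2:176188843-176188901 inside the spans of HOXD1 and the lncRNA gene HAGLR, averaged 934.9 ± 661.6 in brightness (SD over 20 spots), and every spot stood well above background. Its spots ran from 258.9 to 1641 because its 2 probes had means of 290.6 and 1579. miR-3185 from HOXB, at chr17:48724408-48724475 beside HOXB13 and inside PRAC2, had a mean of 43.3 ± 33.5 (SD over 19 spots) and probe means of 12.6 and 77.3. Both were detected, and miR-7704 alone of these miRNAs ranked above miR-10b-3p, at number 138.

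**Figure D4:**
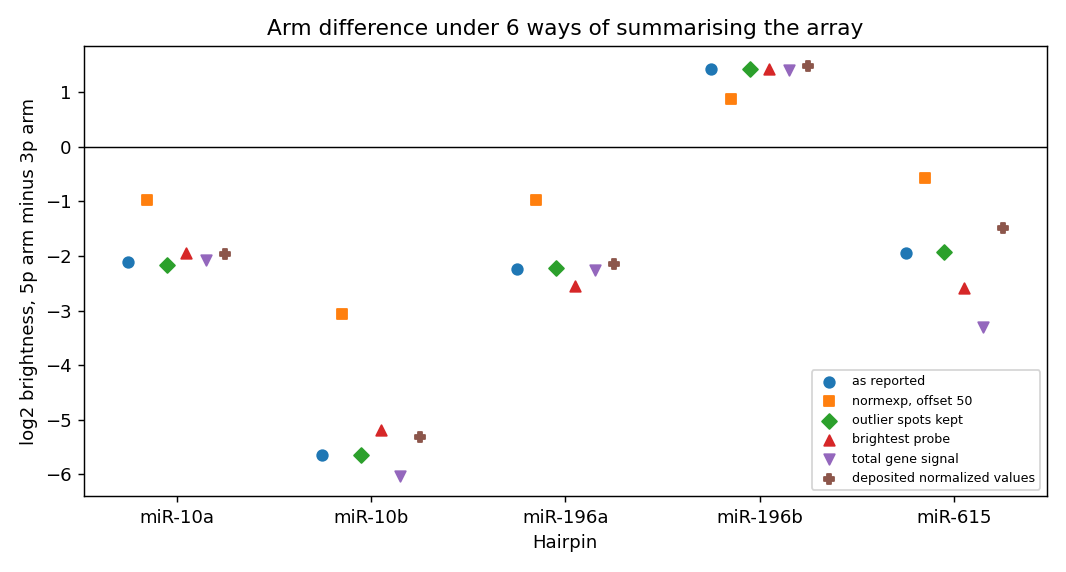
The 5p minus 3p difference in log2 brightness (vertical axis) for each HOX-cluster hairpin (horizontal axis) under 6 ways of summarising the array, each marked by a symbol, with the line at 0 marking equal arms. miR-196b stays above 0, between 0.88 and 1.48, and the other 4 hairpins stay below 0 in every setting drawn.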

How the data were processed

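DLD-1 cells with the control vector gave 1 miRNA array, assigned from its title. Spot intensity on a linear scale was deposited as the output of Agilent Feature Extraction 11.0.1.1, in which the authors' software subtracted local background and set flags. The labels describe direct Cy3 ligation, the methods labelled double-stranded cDNA. The authors also deposited log2 values, described as quantile normalized in GeneSpring GX, and which arrays were normalized together is not given in the sources used here. Here, control and outlier spots were removed, intensities under 1 were raised to 1, and log2 intensity was averaged within each probe, then across a miRNA's probes. From this the 75th percentile of 2567 detected probes was taken off, meaning probes of detected miRNAs for which a share of 0.5 or more of the spots stood well above background. Standard errors combine the spots within probes. Normexp correction used limma 3.58.1 in R 4.3.3, and the rest Python 3.11.15, numpy 2.4.6, pandas 2.3.3 and matplotlib 3.10.9. Level and arm summaries were tested on simulated data without background or differences between the probes of a miRNA. That test does not cover dim members or members whose probes disagree. All 10 members are named, with any other miRNA whose gene lies inside a HOX cluster. Alternatives covered the detection criterion, background correction, outlier spots, summary over probes, the deposited values and the scaling. The members and lists were chosen with earlier results of these data known. The number of arrays limits the precision.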

Additional observations from a re-analysis of the deposited data

How the results depend on the processing

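Detection of the members under other criteria is given with the main count, and it ranged from 8 to 10. The level without 1 negative control probe and the alternatives for the 3p paralogs were chosen after seeing the data. The log2 difference of 1.20 between miR-10a-5p and miR-10b-5p was 0.25 after normexp correction, 1.62 from the total signal and 0.64 in the deposited values. That of -2.93 between miR-196a-5p and miR-196b-5p was -1.43 after normexp correction. The offset of 50 added to every spot in that correction narrows ratios. Normexp also started from the median spot and background signals, and the parts of offset, correction and input in its shifts were not tested. The cause of the other shifts was not tested either. The count of 4 members above the median of detected miRNAs was 5 with the brightest probe of each miRNA, which adds miR-615-3p, and the 5p arm was the brighter in 1 of 5 hairpins under each of the 5 alternatives. The signals of miR-10b-5p and of most miR-615 probes are limited by background. No paired analysis was possible because only 1 array was analysed.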
